A study of Mus musculus with 8 samples.

Results

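Leucine, isoleucine and valine are the branched-chain amino acids, and skeletal muscle is a main site of the first step of their breakdown. In mitochondria, the aminotransferase Bcat2 turns them into branched-chain keto acids. A dehydrogenase complex then commits these to oxidation. The kinase Bckdk phosphorylates the complex and switches it off, and the phosphatase Ppm1k removes the phosphate and switches it on. Further enzymes carry the carbon of valine and isoleucine through propionyl-CoA into the citric acid cycle.

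The 10 genes described here were chosen by name among 54091 rows of the deposited expression table. They are the aminotransferase gene Bcat2, the dehydrogenase complex genes Bckdha, Bckdhb and Dbt, its kinase and phosphatase genes Bckdk and Ppm1k, and the downstream genes Hibch, Hibadh, Aldh6a1 and Pcca. All 10 passed the filter on low values and were among the 15657 genes tested.

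RNA was sequenced from white quadriceps, a thigh muscle portion made up mainly of fast fibres, in male mice aged 11 to 14 weeks. All mice had eaten a diet with 60% fat for 7 days. The 4 knockout libraries (replicates 5 to 8) are labelled CKM Cre with Acot2 knocked out in muscle. CKM is the muscle creatine kinase gene, whose promoter is active in striated muscle, heart included. The 4 control libraries (replicates 1 to 4) are labelled Loxp/Loxp and carry no Cre in their labels. The product of Acot2 is a thioesterase of mitochondria that releases fatty acids from long-chain acyl-CoA. Cre was present only in the knockout group, so what Cre does and what the loss of Acot2 does cannot be told apart. Whether the libraries are from different mice is not given in the sources used here, and p-values cover only the spread between these samples, which may be technical.

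Acot2 itself had normalized counts of 325, 273, 256 and 354 in knockout replicates 5 to 8, against 2179, 3348, 4165 and 2166 in control replicates 1 to 4, as the labels say. The libraries held 55284020 to 74996035 reads in the knockout group and 70275630 to 109101280 in the control group. Control replicates 3 and 4 stood apart from the rest, at 55.2 and 56.1 on the first principal component, while the other 6 libraries lay between -38.6 and 0.561. The groups also differed by annotated exon length. The median log2 difference (knockout minus control) was 0.27 for the quartile of genes with the fewest annotated exon bases. For the quartile with the most it was -0.20. These medians were 0.09 and -0.05 without control replicates 3 and 4. The plot of the 10 differences therefore also gives them without these libraries and with a smooth trend on exon length and GC content removed.

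Marker genes of other cells differed between libraries too. The fast-fibre markers, led by Myh4, summed to between 9700860 and 10463300 normalized counts in the knockout libraries and between 8875300 and 10681000 in the control libraries, and none was at 0. The 7 macrophage markers summed to 10912.5 to 17485.9 in the knockout libraries and 6704 to 10903.5 in the control libraries, with none at 0. The 6 fibro-adipogenic markers summed to 171458 to 227538 in the knockout libraries and 132567 to 171342 in the control libraries, with none at 0. The 8 white adipocyte markers overlapped between groups, at 71742 to 140064 in the knockout libraries and 75377 to 113509 in the control libraries. Heart markers summed to 9097 in knockout replicate 8, against 909 to 1403 in the other knockout libraries and 736 to 1041 in the control libraries. Myl7, Nppa and Nppb, heart genes, were each at 0 in some other libraries. The 3 brown adipocyte markers summed to 2399 and 1760 in knockout replicates 5 and 8, against at most 399 in the other 6 libraries, and the defining gene Ucp1 was at 0 in 2 libraries. The 4 liver markers summed to 794 in knockout replicate 5 and 351 in control replicate 1, against at most 27.4 elsewhere, and 3 of them were at 0 in some libraries. Slow-fibre marker sums overlapped, at 21729 to 71867 in the knockout libraries and 16345 to 89439 in the control libraries. They were highest in control replicate 3 and knockout replicate 6. Endothelial and erythroid marker sums also overlapped between groups. The part of these markers in the results below was not tested. In whole tissue, fewer cells of a type and less RNA per cell cannot be told apart.

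None of the 10 genes passed the threshold between knockout and control (limma, adjusted p under 0.05 over all genes tested). Over all genes, 0.00639% passed, which is Acot2 alone. The 10 log2 differences ran from -0.41 for Pcca to 0.25 for Bcat2, with a median of -0.09 beside a median of 0.00 for all genes tested. Estimates were below 0 for 8 of the 10 and above 0 for Bcat2 and Bckdk. At an unadjusted p under 0.05, 3 of the 10 were lower in knockout (Bckdha, Aldh6a1 and Pcca) and 0 were higher, where 26.9% of all genes passed in either direction and 13.3% were lower. Aldh6a1 was the only one of the 10 whose groups did not overlap, where this held for 13.1% of all genes tested, 6.06% being higher and 7.06% lower. With all libraries, 3 of 10 lies near the share in either direction and above the share that was lower, over few genes. Without control replicates 3 and 4, the same 3 genes were lower and 0 were higher at an unadjusted p under 0.05 (limma). Over all genes tested, 3.62% were lower and 4.36% higher in that fit, and none of the 10 passed the threshold.

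**Figure D1:**
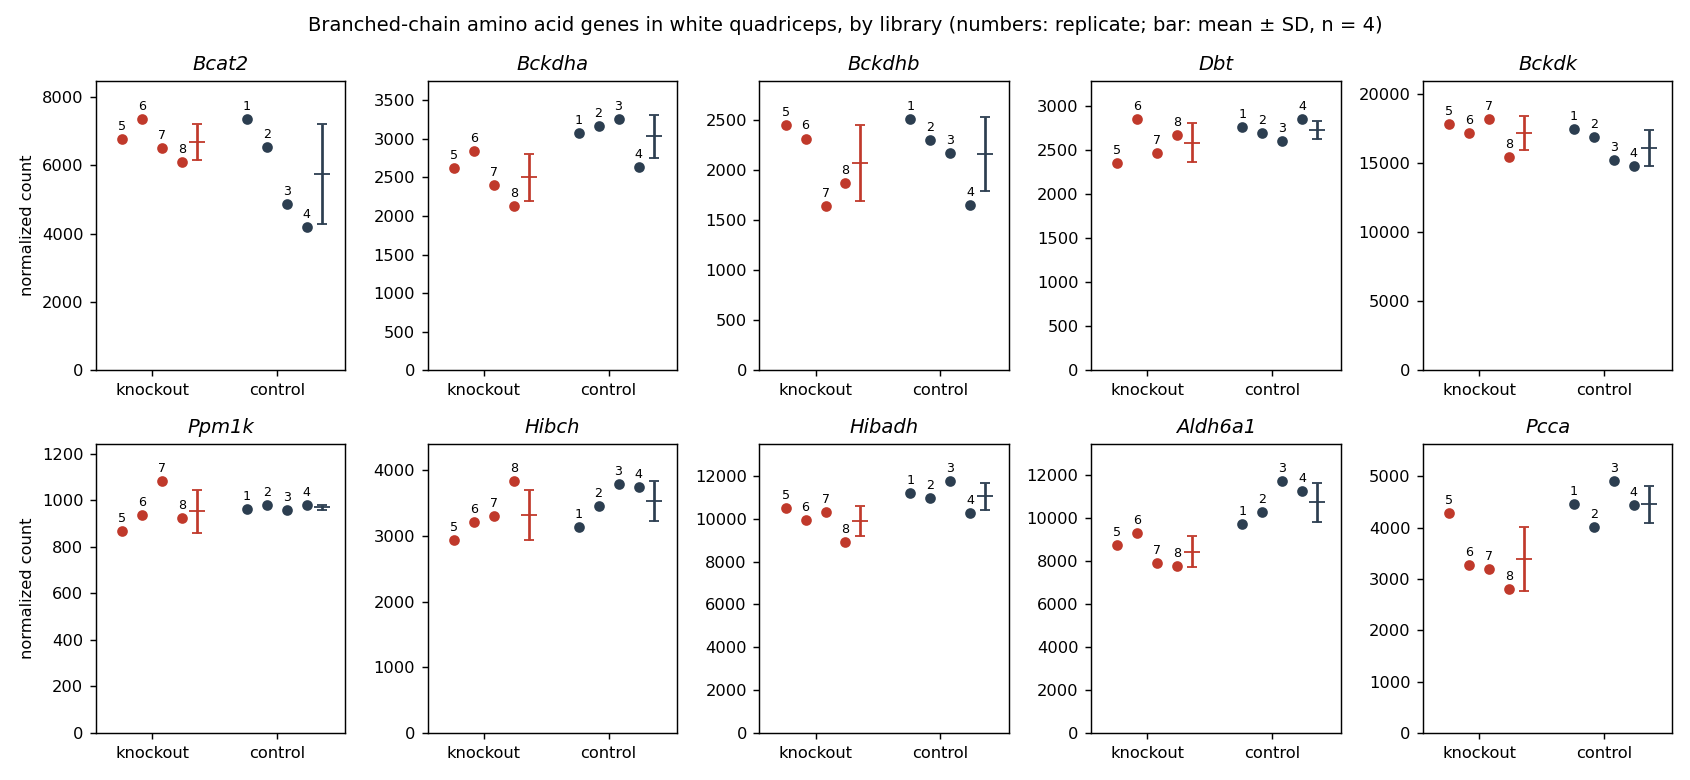
Normalized counts of the 10 genes by library, with knockout (red) left of control (dark) in each panel, replicate numbers above the points, and mean ± SD (n = 4) beside them. All axes start at 0. Aldh6a1 shows 4 knockout libraries below all 4 control libraries, while Bcat2 shows control replicates 3 and 4 below the other 6 libraries.

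The first step is the removal of the amino group. Bcat2, the mitochondrial aminotransferase of muscle, had normalized counts of 6772, 7351, 6515 and 6110 in knockout replicates 5 to 8, against 7364, 6531, 4877 and 4206 in control replicates 1 to 4. Control replicates 3 and 4 were the lowest of the 8, control replicate 2 lay in the knockout range, and control replicate 1 lay just above it. The log2 difference was 0.25 ± 0.16 (SE, limma, adjusted p = 0.316), with a 95% interval of -0.09 to 0.59. The value was -0.06 when control replicates 3 and 4 were left out, so its sign rests on these libraries. Its cytosolic relative Bcat1 was low, at 17.5 to 40.6 normalized counts in knockout and 1.66 to 33.9 in control libraries, the lowest of which is under 3 reads.

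The dehydrogenase complex takes the next step. Its E1 part, which removes the carboxyl group, is built from an alpha subunit, Bckdha, and a beta subunit, Bckdhb. Bckdha had normalized counts of 2627, 2844, 2407 and 2130 in knockout replicates 5 to 8, against 3077, 3167, 3262 and 2636 in control replicates 1 to 4. Of the knockout libraries 3 lay below the lowest control, and knockout replicate 6 lay above control replicate 4. The log2 difference was -0.28 ± 0.12 (SE, limma, unadjusted p = 0.0331, adjusted p = 0.152), with a 95% interval of -0.54 to -0.03.

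Bckdha kept its direction without control replicates 3 and 4, at -0.33 (limma, unadjusted p = 0.0178, adjusted p = 0.606). With the length and GC trend removed it was -0.55 (limma, adjusted p = 0.0596). It ranged from -0.35 to -0.21 when each library was left out in turn. Of the annotated exon bases of Bckdha, 61.7% lie under exons of B3gnt8 on the opposite strand. The strand setting of the counting is not given in the sources used here, so reads of the 2 genes may not be told apart. B3gnt8 averaged 179.5 ± 19.2 normalized counts in knockout and 111.4 ± 35.3 in control libraries (SD, n = 4 each).

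Bckdhb, the beta subunit, had normalized counts of 2449, 2311, 1637 and 1865 in knockout replicates 5 to 8, against 2508, 2298, 2167 and 1649 in control replicates 1 to 4. The groups overlapped over nearly their whole range. Its difference was -0.06 ± 0.16 on the log2 scale (SE, limma, adjusted p = 0.818), with a 95% interval of -0.40 to 0.27, and it was -0.24 without control replicates 3 and 4. Dbt, the E2 core that passes the acyl group to coenzyme A, had 2353, 2854, 2464 and 2665 in knockout replicates 5 to 8, against 2760, 2692, 2605 and 2848 in control replicates 1 to 4. Its groups overlapped, and its difference was -0.08 ± 0.10 (SE, limma, adjusted p = 0.638; 95% interval -0.30 to 0.14). Dld, the E3 subunit shared with pyruvate dehydrogenase, differed by -0.01 ± 0.13 (SE, limma, adjusted p = 0.961).

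The switch of the complex is set by its kinase and phosphatase. Bckdk, the kinase that inhibits it, had normalized counts of 17847, 17162, 18196 and 15443 in knockout replicates 5 to 8, against 17476, 16858, 15200 and 14810 in control replicates 1 to 4. Knockout replicate 8 and control replicates 3 and 4 were the 3 lowest libraries. The log2 difference was 0.09 ± 0.11 (SE, limma, adjusted p = 0.585), with a 95% interval of -0.13 to 0.32, and it was -0.003 without control replicates 3 and 4. Ppm1k, the phosphatase that activates the complex, had 867, 936, 1081 and 923 in knockout replicates 5 to 8, against 961, 981, 956 and 978 in control replicates 1 to 4. The 4 controls spread by 1.23% of their mean (SD) and the knockouts by 9.58%, with knockout replicates on both sides of the controls. Ppm1k differed by -0.03 ± 0.11 on the log2 scale (SE, limma, adjusted p = 0.882), with a 95% interval of -0.27 to 0.21.

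Ratios between genes within a library do not depend on the size factor. They do depend on transcript length, so only their difference between groups is read. That difference can still carry the length and GC trend between the groups. The ratio of the kinase to the subunit it phosphorylates, Bckdk to Bckdha, was 6.79, 6.03, 7.56 and 7.25 in knockout replicates 5 to 8, against 5.68, 5.32, 4.66 and 5.62 in control replicates 1 to 4. All 4 knockout libraries lay above all 4 control libraries, and the fold between group means on the log2 scale was 1.30. Among single genes, the groups did not overlap for 13.1% of all genes tested, and no such share is given for ratios. The two-sided p by exact permutation was 0.0286, which is the lowest value possible with 4 libraries a group and follows from the lack of overlap. After adjustment over the 3 ratios tested it was 0.0857 (exact permutation), so it did not pass. The log2 difference was 0.38, or 0.32 without control replicates 3 and 4 and 0.60 with the length and GC trend removed. Since Bckdk differed by 0.09 and Bckdha by -0.28, the larger share of the 0.38 is that of Bckdha.

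The other ratios overlapped between groups. Kinase to phosphatase, Bckdk to Ppm1k, averaged 18.1 ± 1.80 in knockout and 16.6 ± 1.35 in control libraries (SD, n = 4 each; exact permutation p = 0.257, adjusted p = 0.257). Its log2 difference was 0.12, or -0.07 with the length and GC trend removed. Alpha to beta subunit, Bckdha to Bckdhb, averaged 1.23 ± 0.17 in knockout and 1.43 ± 0.16 in control libraries (SD, n = 4 each; exact permutation p = 0.143, adjusted p = 0.214). Knockout replicates 6 and 7, at 1.23 and 1.47, lay inside the control range.

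**Figure D2:**
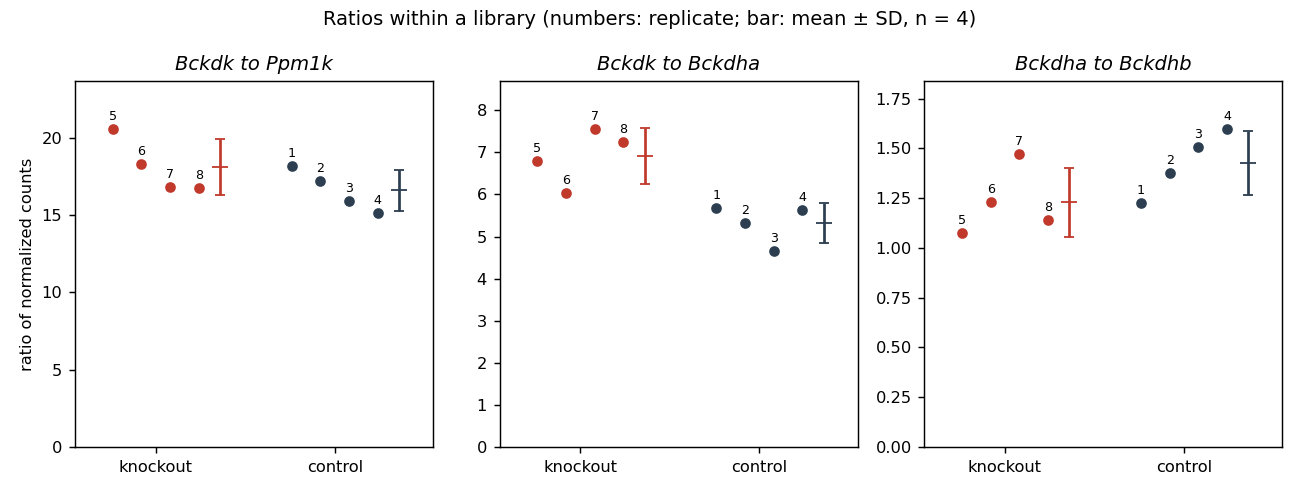
Ratios of normalized counts within each library, knockout (red) left of control (dark), with replicate numbers and mean ± SD (n = 4); axes start at 0. Bckdk to Bckdha lies between 6.03 and 7.56 in knockout and between 4.66 and 5.68 in control libraries, and the other ratios overlap.

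Downstream, valine carbon passes through Hibch, Hibadh and Aldh6a1. Hibch, the hydrolase that frees hydroxyisobutyrate from coenzyme A, had 2939, 3208, 3306 and 3832 normalized counts in knockout replicates 5 to 8, against 3136, 3460, 3794 and 3744 in control replicates 1 to 4. The groups overlapped, with knockout replicate 8 the highest of all. Its log2 difference was -0.09 ± 0.11 (SE, limma, adjusted p = 0.624; 95% interval -0.34 to 0.15).

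Hibadh, which oxidises free hydroxyisobutyrate, had 10485, 9926, 10314 and 8927 in knockout replicates 5 to 8, against 11221, 10945, 11740 and 10252 in control replicates 1 to 4. The lowest control lay inside the knockout range. The difference was -0.16 ± 0.10 (SE, limma, adjusted p = 0.331; 95% interval -0.37 to 0.06), and 0.08 with the length and GC trend removed.

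Aldh6a1 is the methylmalonate semialdehyde dehydrogenase, which makes propionyl-CoA from valine carbon. It had normalized counts of 8759, 9278, 7883 and 7768 in knockout replicates 5 to 8, against 9719, 10267, 11699 and 11244 in control replicates 1 to 4. The groups did not overlap, and control replicates 3 and 4 were the highest. The means were 8422 ± 722 in knockout and 10732 ± 902 in control libraries (SD, n = 4 each), and the log2 difference was -0.35 ± 0.11 (SE, limma, unadjusted p = 0.00610, adjusted p = 0.0853; 95% interval -0.58 to -0.12). It did not pass over all genes, where 12.0% of all genes tested had an adjusted p under 0.1. Leaving out control replicates 3 and 4 gave -0.25 (limma, adjusted p = 0.622), and with the trend removed -0.22 (limma, adjusted p = 0.170). It passed when control replicate 1 was left out, at -0.40 (limma, adjusted p = 0.0457), a fit that keeps control replicates 3 and 4. In that fit 1722 of the 15657 genes tested passed.

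Aldh6a1 is a neighbour of the targeted gene. It lies on the minus strand at chr12:84430717-84451004 (GRCm38), 437 kb from the end of Acot2 on the same chromosome. Of 30 tested genes other than Acot2 whose start lies within 1 Mb of that of Acot2, Aldh6a1 included, 16 had estimates below 0 and 14 above 0, with a median of -0.15 and none past the threshold. Aldh6a1 ranked eighth from the most negative among them. At an unadjusted p under 0.05, 9 of these 30 genes were lower and 5 higher, where 13.3% of all genes tested were lower and 13.6% higher. An effect of the chromosome around the targeted allele and one of losing Acot2 cannot be told apart for this gene. Of its exon bases, 18.6% lie under exons of Ccdc176 (Bbof1) on the opposite strand, a gene at 102.5 to 157 normalized counts over the 8 libraries.

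Pcca, the biotin-carrying alpha subunit of propionyl-CoA carboxylase, had 4281, 3281, 3186 and 2809 in knockout replicates 5 to 8, against 4463, 4016, 4901 and 4451 in control replicates 1 to 4. Of the knockout libraries 3 lay below the lowest control, while knockout replicate 5 lay inside the control range. The means were 3389 ± 628 in knockout and 4458 ± 362 in control libraries (SD, n = 4 each). The log2 difference was -0.41 ± 0.13 (SE, limma, unadjusted p = 0.00758, adjusted p = 0.0875; 95% interval -0.69 to -0.13). It was -0.34 when these 2 controls, replicates 3 and 4, were left out (limma, adjusted p = 0.623), and with the trend removed -0.32 (limma, adjusted p = 0.126). It passed when control replicate 2 was left out, at -0.46 (limma, adjusted p = 0.0472), a fit that also keeps control replicates 3 and 4. In that fit 2048 of the 15657 genes tested passed.

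Its partner, the beta subunit gene Pccb, was looked at after its values were seen. Pccb had 11334, 11768, 10997 and 11100 in knockout replicates 5 to 8, against 11315, 11046, 9060 and 8388 in control replicates 1 to 4. It differed by 0.19 ± 0.12 on the log2 scale (SE, limma, adjusted p = 0.294), an estimate of opposite sign to that of Pcca. Pccb differed by 0.01 without control replicates 3 and 4 and by 0.09 with the trend removed. The Pcca to Pccb ratio, chosen likewise and not tested, was 0.378, 0.279, 0.290 and 0.253 in knockout replicates 5 to 8, against 0.394, 0.364, 0.541 and 0.531 in control replicates 1 to 4. Knockout replicate 5 lay between the controls, and the other 3 knockout libraries lay below all of them. Control replicates 3 and 4 had the highest ratios.

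**Figure D3:**
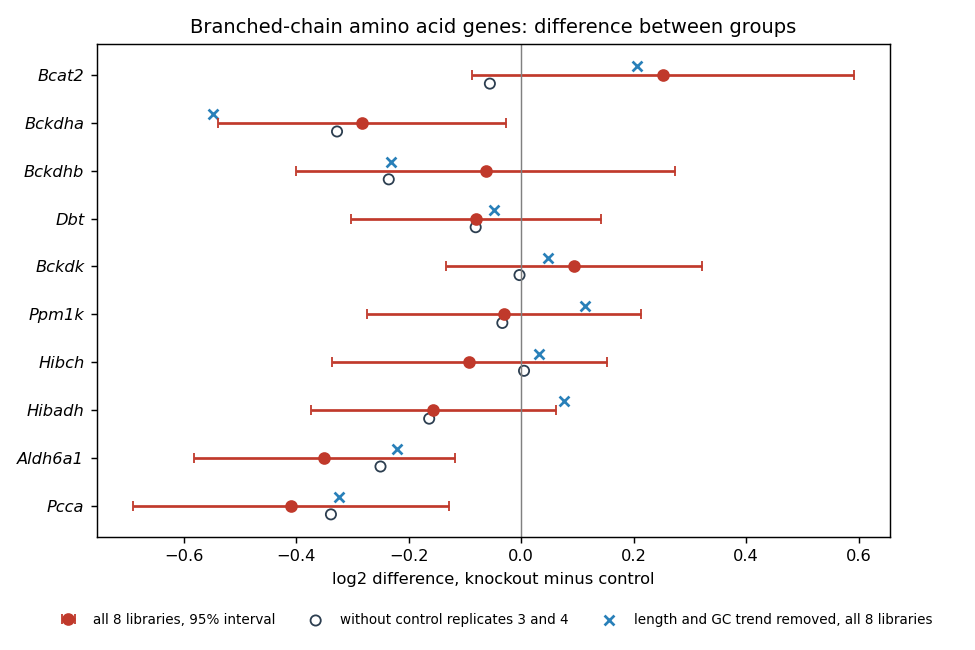
Log2 differences of the 10 genes, knockout minus control, with 95% intervals from limma (red), without control replicates 3 and 4 (open circles) and with the length and GC trend removed (blue crosses). Bckdha, Aldh6a1 and Pcca lie below 0 in all 3, while Bcat2 lies at 0.25 with all libraries and at -0.06 without control replicates 3 and 4.

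The start regions of 4 of these genes are shown because the kinase to substrate ratio and the lowest unadjusted p-values involve them. Each line gives the 250 bases before the RefSeq start site (GRCm38.p6), 5′ to 3′ on the strand of the gene. Capitals mark matches on either strand to a GC box (GGGCGG), a letter pattern bound by Sp and Klf proteins, or to CACCC, another pattern that Klf proteins bind.
Bckdk, chr7:127903823-127904072, plus strand: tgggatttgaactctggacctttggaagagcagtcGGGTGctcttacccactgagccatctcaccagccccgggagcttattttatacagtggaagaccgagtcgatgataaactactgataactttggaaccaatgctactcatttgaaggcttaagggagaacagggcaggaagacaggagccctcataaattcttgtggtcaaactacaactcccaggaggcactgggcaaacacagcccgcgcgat
Bckdha, chr7:25658762-25659011, minus strand: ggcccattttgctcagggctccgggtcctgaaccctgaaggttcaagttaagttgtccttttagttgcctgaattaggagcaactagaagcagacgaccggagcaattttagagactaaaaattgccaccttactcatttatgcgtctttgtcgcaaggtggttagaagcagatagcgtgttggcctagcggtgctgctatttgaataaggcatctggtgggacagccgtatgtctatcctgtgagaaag
Aldh6a1, chr12:84451025-84451274, minus strand: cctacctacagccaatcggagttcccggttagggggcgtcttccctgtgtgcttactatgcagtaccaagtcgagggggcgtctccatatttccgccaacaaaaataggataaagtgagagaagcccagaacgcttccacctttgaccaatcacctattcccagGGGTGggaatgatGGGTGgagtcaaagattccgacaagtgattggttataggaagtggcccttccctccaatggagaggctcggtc
Pcca, chr14:122534078-122534327, plus strand: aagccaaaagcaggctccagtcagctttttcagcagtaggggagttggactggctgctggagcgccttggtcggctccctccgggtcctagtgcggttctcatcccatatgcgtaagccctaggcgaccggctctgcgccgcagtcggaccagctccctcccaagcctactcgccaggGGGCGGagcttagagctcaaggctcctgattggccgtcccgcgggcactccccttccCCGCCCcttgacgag
Aldh6a1 holds 2 matches to CACCC and Bckdk 1, Pcca holds 2 GC boxes, and Bckdha holds neither pattern in its window. The GENCODE annotation places the 5′ end of Bckdha at chr7:25658981, inside its window, so most of that window lies within the annotated gene. Of 32851 start regions of this length, 32.7% hold a GC box and 52% hold CACCC, and 5 of the 9 members with an entry hold each. The pattern AAGGTCA, bound by the nuclear receptor Esrra, was in 0 of these 9 and in 4.08% of all. These matches describe letters only.

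By annotated exon length, the kinase was the most abundant of the 10. Bckdk reached 4645 ± 331 normalized counts per kilobase of exon in knockout and 4353 ± 347 in control libraries (SD, n = 4 each). Ppm1k was the lowest, at 158 ± 15.1 in knockout and 161 ± 1.98 in control libraries. Between them, Bcat2, Aldh6a1, Bckdha and Bckdhb averaged 1144 to 1715 per kilobase in knockout and 1194 to 1856 in control libraries. The order of Bcat2, Aldh6a1 and Bckdha differed between the groups, and the libraries of genes next to each other in it overlapped, down to Hibadh. Hibadh, Dbt, Pcca and Hibch averaged 548 to 974 in knockout and 583 to 1085 in control libraries. Hibadh lay above the rest of these without overlap in both groups, and Dbt and Pcca overlapped. Per kilobase of the principal transcript in place of all annotated exons, Hibadh came first at 5432 in knockout and 6049 in control libraries, ahead of Bckdk at 5040 and 4724, and Ppm1k stayed last. The order of the middle genes thus depends on which transcripts are used, which the deposited counts do not show.

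The differences can also be set beside exon length, whose part in them was not tested. Bckdha (1899 exon bases) and Bckdhb (1805) fall in the quartile with the fewest exon bases, whose median difference was 0.27, and both had estimates below 0. Pcca (5210), Aldh6a1 (5784), Ppm1k (6022) and Hibch (6059) fall in the quartile next to the highest, whose median was -0.06. Pcca, Aldh6a1 and Hibch lay below that median, at -0.41, -0.35 and -0.09, and Ppm1k lay above it, at -0.03. Hibadh (10179) falls in the highest quartile, with a difference of -0.16 beside a median of -0.20. The quartiles and the trend use all annotated exon bases. The principal transcripts of Hibadh, Hibch and Bcat2 hold 1825, 1830 and 1772 bases. The place of these genes by length, and their values with the trend removed, thus depend on the transcripts used.

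**Figure D4:**
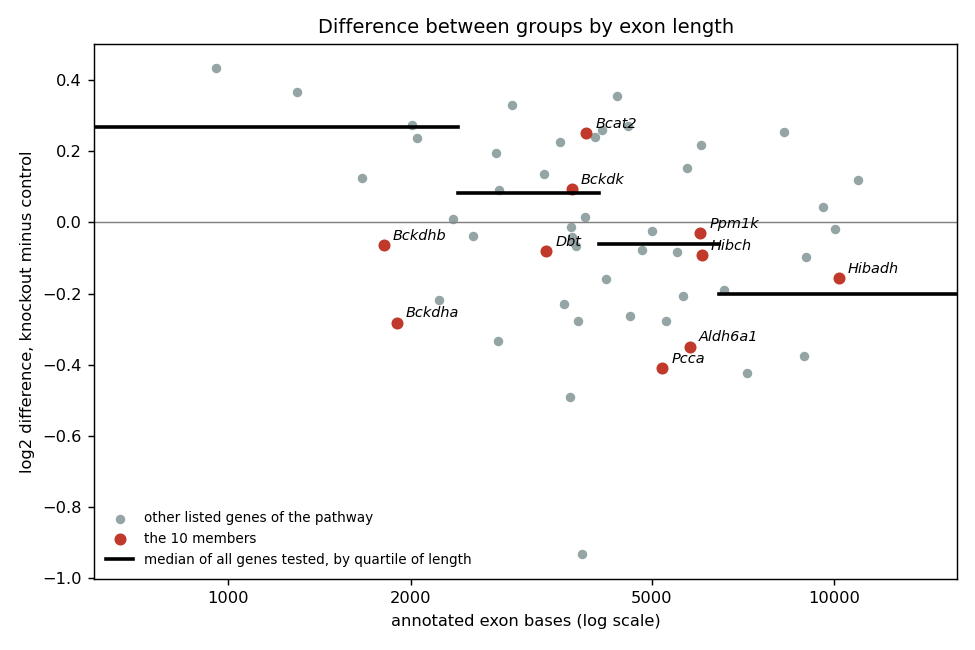
Log2 difference, knockout minus control, against annotated exon bases (log scale) for the 10 genes (red) and the other listed genes of the pathway (grey); black lines are the medians of all genes tested in each quartile of length. The medians step down from 0.27 to -0.20, and Bckdha lies at -0.28 where the median is 0.27; Bcat1, at 1.40, lies above the plotted range.

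Among 46 other genes of branched-chain amino acid transport, breakdown and control, 0 passed the threshold in either direction. Estimates were above 0 in 23 and below 0 in 23, with a median of -0.0014. At an unadjusted p under 0.05, 6 were higher and 5 lower, which is 11 of 46 beside the 26.9% of all genes. When control replicates 3 and 4 were left out, 0 were higher and 3 lower, where 4.36% and 3.62% of all genes were. With all libraries, groups did not overlap for 1 of the 46 that was higher (Mmaa) and 3 that were lower (Gpt2, Acadsb and Mmab). Over all genes tested, this held for 6.06% higher and 7.06% lower.

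The carriers showed no common direction. Of 6 transport genes, 2 had estimates above 0 and 4 below, from -0.23 to 0.23. Slc25a44, the mitochondrial carrier of branched-chain amino acids, differed by -0.23 ± 0.13 (SE, limma, adjusted p = 0.287), and Slc3a2, the heavy chain of the plasma membrane carrier, by 0.23 ± 0.13 (SE, limma, adjusted p = 0.263). Among 7 genes of transamination and nitrogen disposal, the alanine aminotransferases went opposite ways in estimate. Gpt, the cytosolic form, differed by 0.33 ± 0.14 (SE, limma, adjusted p = 0.146), and Gpt2, the mitochondrial form, by -0.21 ± 0.10 (SE, limma, adjusted p = 0.210). The Gpt2 groups did not overlap. Of 6 cofactor genes, 4 had estimates above 0, with Lias, the lipoate synthase, at 0.27 ± 0.12 (SE, limma, adjusted p = 0.158). Without control replicates 3 and 4, Slc25a44 was at -0.12, Slc3a2 at 0.02, Gpt at 0.11, Gpt2 at -0.13 and Lias at 0.13.

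In the leucine branch, 4 of 5 genes had estimates above 0. Mccc1, the biotin-carrying subunit of methylcrotonyl-CoA carboxylase, differed by 0.12 ± 0.11 (SE, limma, adjusted p = 0.519). In the isoleucine branch, 2 of 4 genes lay on each side. Above 0 were Hsd17b10, at 0.37 ± 0.16 (SE, limma, adjusted p = 0.155), and Echs1, at 0.26 ± 0.15 (SE, limma, adjusted p = 0.282). Without control replicates 3 and 4 they were at 0.06 and 0.006. Acadsb, the dehydrogenase of the isoleucine-derived acyl-CoA, had 6410, 6360, 5853 and 5882 normalized counts in knockout replicates 5 to 8, against 7510, 7010, 9756 and 8871 in control replicates 1 to 4. The groups did not overlap, and the difference was -0.42 ± 0.12 (SE, limma, adjusted p = 0.0796), or -0.25 without control replicates 3 and 4. In the valine branch, Acad8, the isobutyryl-CoA dehydrogenase, was the only one of 4 genes, with Hibch, Hibadh and Aldh6a1, that had an estimate above 0, at 0.26 ± 0.12 (SE, limma, adjusted p = 0.190). Acad8 was at 0.15, and Hibch at 0.005, when control replicates 3 and 4 were left out.

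Of 10 genes from propionyl-CoA to succinyl-CoA, Pcca included, 5 had estimates above 0 and 5 below. Mmab, which makes the adenosyl form of vitamin B12 that the last enzyme needs, had 2753, 1935, 2218 and 1862 normalized counts in knockout replicates 5 to 8, against 2994, 2949, 3232 and 3017 in control replicates 1 to 4. Its groups did not overlap, with knockout replicate 5 nearest the controls, as for Pcca. The difference was -0.49 ± 0.13 (SE, limma, adjusted p = 0.0796), -0.46 without control replicates 3 and 4 and -0.55 with the trend removed, and it passed in neither (limma, adjusted p = 0.605 and 0.0568). Mut, the mutase itself, differed by -0.28 ± 0.11 (SE, limma, adjusted p = 0.145), and Hlcs, which attaches biotin to Pcca, by -0.38 ± 0.14 (SE, limma, adjusted p = 0.115). Without control replicates 3 and 4, Mut was at -0.14 and Hlcs at -0.19. Mcee, the epimerase between carboxylase and mutase, differed by 0.43 ± 0.15 (SE, limma, adjusted p = 0.108). Mmadhc differed by 0.27 ± 0.13 (SE, limma, adjusted p = 0.206) and Mmaa by 0.22 ± 0.11 (SE, limma, adjusted p = 0.210). The Mmaa groups did not overlap. Without control replicates 3 and 4, Mcee was at 0.22, Mmadhc at 0.16 and Mmaa at 0.18. Mmaa, Mut and Hlcs were named after their values were seen.

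Among the regulators, Klf15, a transcription factor known in mouse muscle to drive branched-chain amino acid breakdown, had 2116, 1677, 1557 and 1041 normalized counts in knockout replicates 5 to 8, against 2242, 2503, 1681 and 1534 in control replicates 1 to 4. The groups overlapped, and the difference was -0.33 ± 0.20 (SE, limma, adjusted p = 0.307). Klf15 was named after its values were seen. Its difference was -0.61 without control replicates 3 and 4 (limma, unadjusted p = 0.0356, adjusted p = 0.623). Ppara, a fatty acid receptor, differed by -0.93 ± 0.35 (SE, limma, adjusted p = 0.121) and by -0.31 without these controls, and Esrra by 0.36 ± 0.15 (SE, limma, adjusted p = 0.146) and 0.08 without them.

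**Figure D5:**
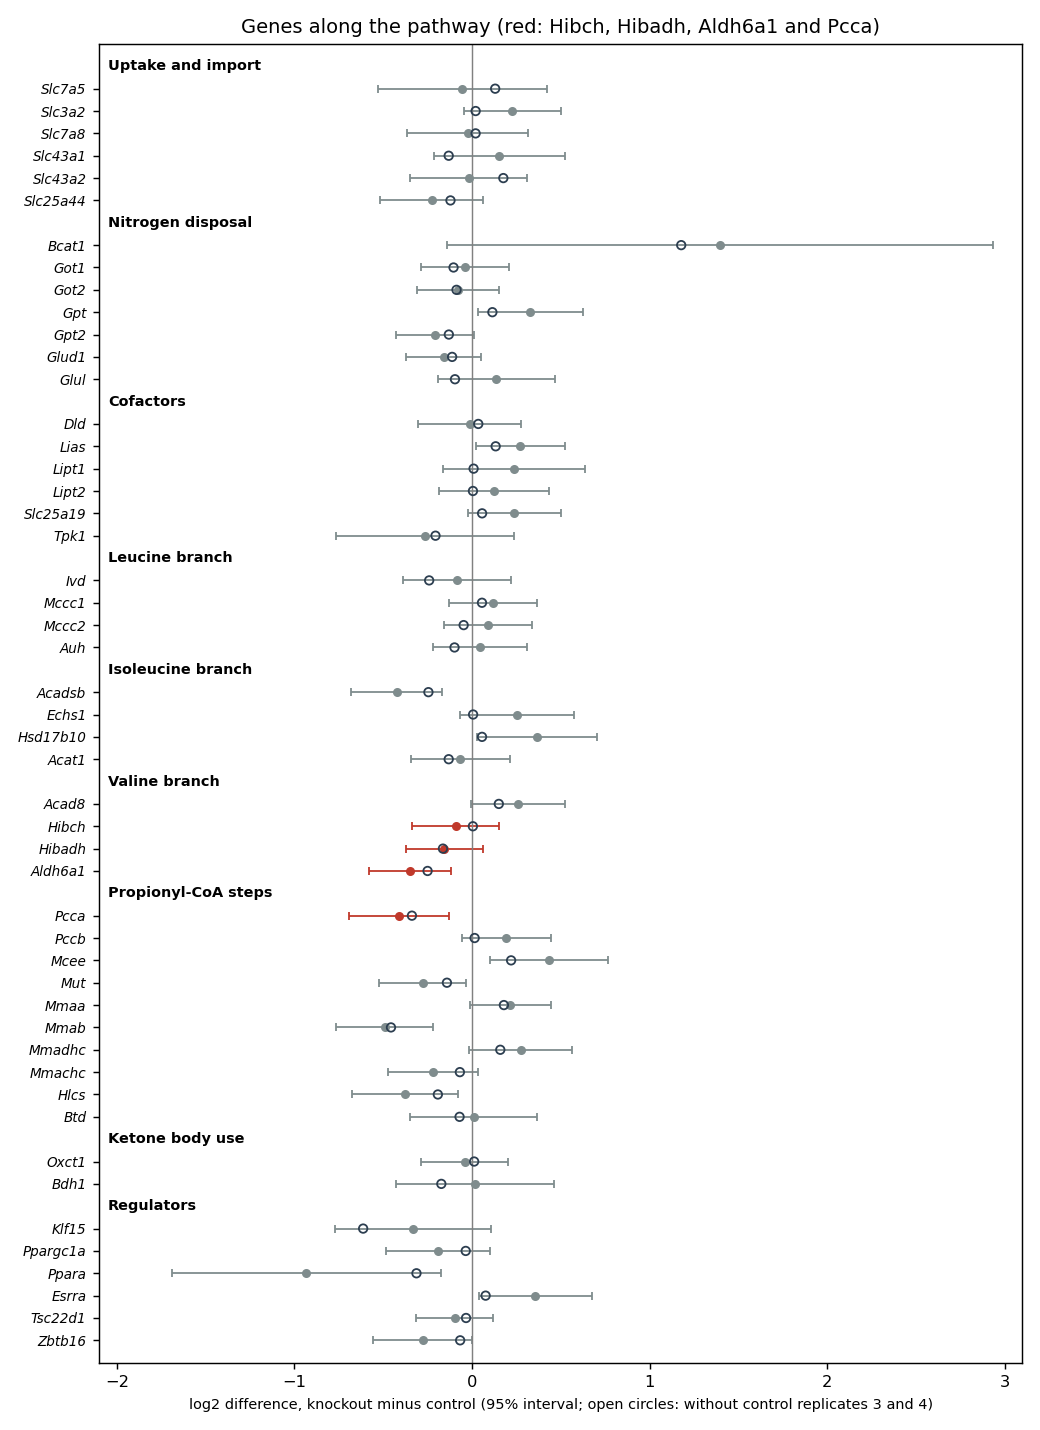
Log2 differences of the listed genes of the pathway, knockout minus control, by step, with 95% intervals from limma (filled) and the value without control replicates 3 and 4 (open circles); the 4 members in these lists are red. Mcee lies at 0.43 with all libraries and at 0.22 without these controls, while Mmab lies at -0.49 and -0.46.

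The genes whose log2 values followed each member most closely over the 8 libraries, after group means were removed, are given as a description. For Bckdha these were Egln1 (Pearson r = 0.98) and Cdk18 (0.97), and for Bckdhb Itgb5 (0.98) and Aldh1l1 (0.96). For Bckdk they were Rbm38 (0.99) and Mgst3 (0.98), and for Ppm1k Gm13604 (0.96) and Fancf (0.95). Genes above 0.9 numbered 12 for Ppm1k and 439 for Bcat2. For Bcat2 the closest were Gm32352 and 2510039O18Rik (0.99 each), and for Dbt Terf2ip and 9930104L06Rik (0.97 each). For Hibch they were Hspa13 and Ccnd1 (0.99 each), and for Hibadh Ifitm1 and Gbas (0.98 each). For Aldh6a1 they were Lgalsl and Yipf6 (0.99 each), and for Pcca Dym and Cog1 (0.97 each). The points share the 8 libraries, and control replicates 3 and 4 stand apart in them. Among the members, the most alike were Bcat2 and Bckdk (0.80), and the least alike Bckdk and Hibch (-0.87).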

How the data were processed

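The deposited table holds log2 values, 1 column per library, and all 8 were used. The submitters' processing notes list STAR, HTSeq, DESeq2, cutadapt and FastQC and the build GRCm38, with no version, setting, annotation or strand. The form log2(count divided by a size factor + 1) was inferred from the deposited values: with the log2 undone, 100% of values up to 1000 reads lay within 0.1 of a whole read. 3 reads correspond to normalized counts of 2.04 to 3.87, which covers counting error only.

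Library pairs within a group differed by a chi-square per gene of 35.4 to 265 and counted as separate samples. The test was limma 3.58.1 in R 4.3.3 (trend, robust, Benjamini-Hochberg) on log2(normalized count + 1), for genes whose normalized counts averaged 10 or more. Raw counts were foreseen for a count test, but the deposited unit is log2, so voom on recovered reads served as an alternative. The fit was also run on simulated reads with known changes. That simulation had neither the outlying control libraries nor the length trend of these data, so it does not cover them. The ratios were tested by exact permutation. The trend was a loess curve (span 0.5) on exon length and GC content from GENCODE M21 (GRCm38), which need not be the annotation used for counting. Promoters are from RefSeq (GRCm38.p6).

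The members and gene lists were chosen with earlier results of these data known. Named genes are the 10 members, Acot2, and, in each list, the genes past the threshold or else up to 2 of smallest p in each direction, of which not all are printed; 1 listed gene is counted but not reported or plotted here. Other steps used scipy 1.17.1, pandas 2.3.3 and numpy 2.4.6 under Python 3.11.15, and figures matplotlib 3.10.9.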

Additional observations from a re-analysis of the deposited data

How the results depend on the processing

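No paired analysis was possible because the groups share no replicate number. The count of 1 gene called was 2 with equal totals, with equal totals without mitochondrial DNA genes, with no filter and without knockout replicates 6 and 8, 4 with the length and GC trend removed, 7 with no variance trend and 1201 with sample weights (whose iteration stopped before convergence). It ran from 1 to 2048 when 1 library was left out, with 1722 without control replicate 1 and 2048 without control replicate 2. The number of the 10 members called was 1 with sample weights (Aldh6a1, limma, adjusted p = 0.0467), without control replicate 1 (Aldh6a1, -0.40, adjusted p = 0.0457) and without control replicate 2 (Pcca, -0.46, adjusted p = 0.0472), and 0 in the other 21 alternatives. Over the 24 alternatives Aldh6a1 ran from -0.40 to -0.22 (limma, adjusted p = 0.0457 to 0.685), Pcca from -0.53 to -0.27 (adjusted p = 0.0472 to 0.678), Bckdha from -0.55 to -0.21 (adjusted p = 0.0596 to 0.634) and Dbt from -0.18 to -0.04, all below 0. Signs turned elsewhere. With the trend removed, Ppm1k was 0.11, Hibch 0.0322, Hibadh 0.0768 and the Bckdk to Ppm1k ratio -0.0665. Without control replicates 3 and 4, Bcat2 was -0.0557, Bckdk -0.003 and Hibch 0.005, and with both settings at once Bcat2 was -0.0634, Bckdk -0.0138, Hibch 0.0283 and the Bckdk to Ppm1k ratio -0.0084. Leaving out 1 library gave Bckdhb values from -0.1862 to 0.0423, above 0 without control replicate 1 and without knockout replicate 7, and Ppm1k values from -0.0933 to 0.0127, above 0 without knockout replicate 5. Ppm1k was 0.0079 with sample weights. The cause was not tested. The Bckdk to Bckdha ratio kept its direction in all 17 alternatives that give one (log2 0.31 to 0.60). With a library left out, 4 against 3 samples cannot give a permutation p under 0.0571, and without control replicates 3 and 4 none under 0.133.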
